A study of Mus musculus with 18 samples.

Results

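CD11b+ dendritic cells (DCs) sorted from the intestinal lymph node were compared with CD11b+ DCs sorted from the small intestinal lamina propria, across all genes of a read count table. The 6 libraries compared, 3 from each tissue, were chosen by their labelled cell type and tissue and made up 6 of the 18 libraries of the series. The other 12 held CD103+ DCs and DCs positive for both CD11b and CD103 (double-positive) from the same tissues. The count columns label the CD11b+ libraries CD11b single-positive. All 18 libraries came from C57BL/6J mice with the genotype CD11a KO, so that the libraries compared shared the knockout and no wild-type library was present. CD11a, encoded by Itgal, is the alpha chain of the leukocyte integrin LFA-1. The labels gave no age, sex, knockout allele or number of animals per library. Lamina propria DCs were sorted as live single CD45+ CD64- MHCII-high CD11c+ cells after Peyer's patches had been removed, and the gate used for lymph node DCs was not given. The labels did not say that replicates came from separate animals, so p-values measure the spread between these libraries, which may be technical.

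DCs take up antigen in tissues and present it to T cells. CD11b+ DCs belong mostly to the conventional type 2 lineage (cDC2), which depends on IRF4 and is best known for priming CD4 T cells. Gut DCs that leave the lamina propria upregulate CCR7, travel in lymph to the draining node and mature on the way, a programme with high Fscn1, Relb and costimulatory molecules and less antigen uptake. Lymph nodes also hold resident DCs that arrive from blood, among which CD11b+ cells can carry ESAM and CD4.

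The 6 libraries held 25457164 to 29648087 counts (23574292 to 46901985 over the series), with 20897 to 22222 genes counted in lamina propria and 22376 to 23347 in lymph node. In a principal component analysis of the 6 libraries the first component held 75.8% of the variance and separated the tissues, and the second (7.84%) set lamina propria replicate 3 apart. Levels are given in CPM, which are counts scaled to each library's total count multiplied by its TMM scaling factor. Itgal (ENSMUSG00000030830, chromosome 7, 127296260 to 127335138, GRCm38) was counted in every library: 20.4, 25.3 and 21.8 CPM in lamina propria and 21.0, 18.1 and 23 CPM in lymph node. With no wild-type library and an allele that the labels do not give, these counts do not check the genotype. Sex-linked genes differed between libraries. Xist was at most 0.0948 CPM in lamina propria, 89.1 and 87.8 CPM in lymph node replicates 1 and 2 and 15.4 CPM in replicate 3. The Y-linked gene Ddx3y was 50 to 65 CPM in lamina propria, 0.213 and 0.130 CPM in lymph node replicates 1 and 2 and 58.0 CPM in replicate 3. Replicate 3 of lymph node thus held both Xist and Y-linked transcripts, and for the other 5 libraries sex and tissue cannot be told apart. Keeping replicate 3 as the only lymph node library gives a comparison in which both tissues hold Y-linked transcripts, and its counts are given below.

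The integrin genes of the sort were lower in lymph node. Itgam, which encodes CD11b, was 55.3, 60.5 and 68.1 CPM in lamina propria and 25.7, 13.8 and 23 CPM in lymph node. The groups did not overlap, and Itgam fell by 1.56 on the log2 scale (SE 0.27, adjusted p = 0.00025, edgeR quasi-likelihood test). Itgax, which encodes CD11c, was lower without passing the fold limit (log2 difference -0.94). Itgae, which encodes CD103, was 121, 92.1 and 293 CPM in lamina propria, highest in replicate 3, and 5.57 to 6.65 CPM in lymph node (log2 difference -4.82, SE 0.35). Itgae RNA was thus counted in libraries labelled CD11b single-positive. The part of CD103+ cells in these counts was not tested. Of the 16 cDC2 markers listed, none was at 0 in either tissue. Their summed level was 2397 to 3077 CPM in lymph node CD11b+ DCs, against 4368 to 5034 CPM in their lamina propria counterparts. In the other subsets of lymph node it was 728 to 789 CPM (CD103+) and 1043 to 1180 CPM (double-positive). The lower sum in lymph node CD11b+ DCs came from Cd209a and Mgl2, whose values are given below. Of the 16 markers 5 rose and 6 fell, so the sum does not describe a drop of the whole list. In bulk samples, fewer cells of a type and less RNA per cell cannot be told apart, and this holds for every list below.

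Of 17074 genes tested, 2600 (15.2%) differed between the tissues at an adjusted p under 0.01 and a fold change over 2. Lymph node was higher for 1758 genes (10.3%) and lower for 842 (4.93%), so that 67.6% of the calls were higher. The median log2 difference over all genes tested was 0.03. Values of the 3 lymph node and the 3 lamina propria libraries did not overlap for 8682 genes (50.8%), 4743 higher (27.8%) and 3939 lower (23.1%), and 1753 of the higher calls and 837 of the lower calls were among them. The fitted log2 difference was over 3 for 851 of the higher calls and under -3 for 239 of the lower calls. When lymph node replicate 3 was the only lymph node CD11b+ library, 1579 genes were called, of which 1480 were calls in the same direction as with all 6.

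**Figure D1:**
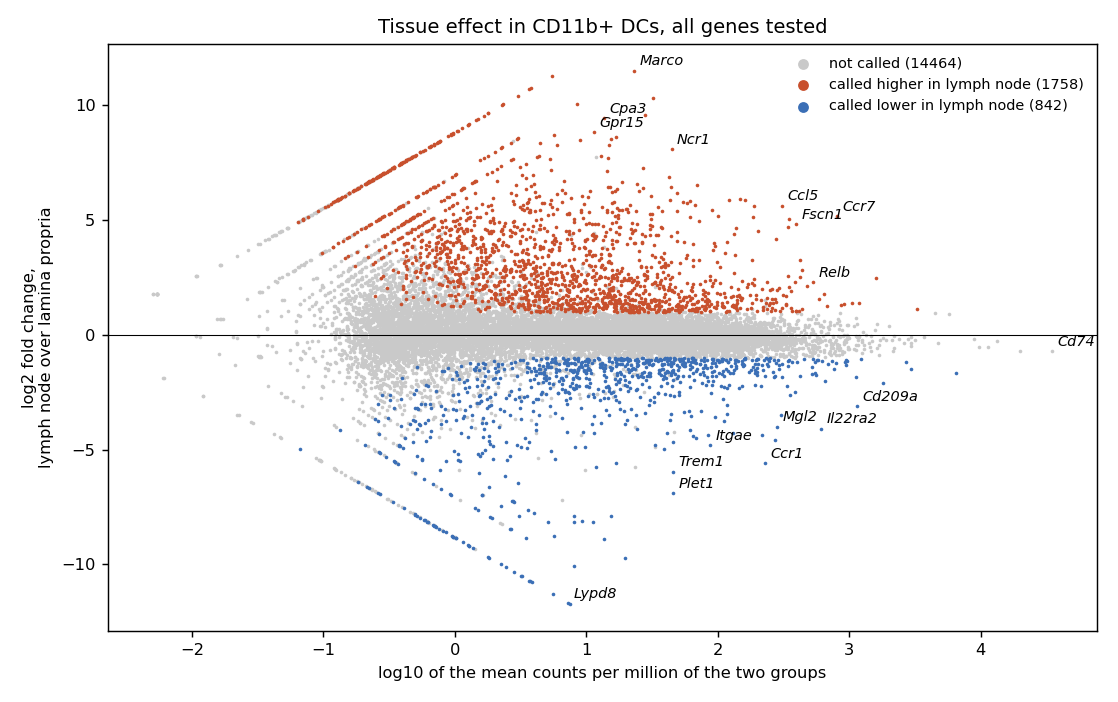
Each point is 1 gene tested, by the log10 of its mean CPM over the 2 groups (x axis) and its fitted log2 difference between lymph node and lamina propria CD11b+ DCs (y axis). The 1758 genes called higher and 842 called lower are coloured, 10 genes at 0 in all 6 libraries are not drawn, and Ccr7, Ccl5 and Fscn1 stand out among rises at high CPM as Ccr1, Il22ra2 and Cd209a do among falls.

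The steepest protein-coding rises were genes hardly counted in lamina propria. Marco, a scavenger receptor for bacteria, had 1 count in lamina propria, all 3 libraries summed, and 4326 in lymph node (38.7, 44.3 and 56.3 CPM), a ratio of 4009 after scaling with a 95% interval of 719 to 158386 (exact binomial, counting error only, as for every interval below). Ceacam15 had no count in lamina propria and 9.13 to 14.2 CPM in lymph node, at least 314-fold higher against a floor of 3 counts over the group. Gpr15, a homing receptor best known on gut T cells, rose from at most 0.0718 CPM to 17.6, 29.7 and 21.3 CPM (log2 difference 8.82, SE 0.81). Scn3a, a sodium channel gene, rose 345-fold (interval 118 to 1676), and Tmem132c rose 500-fold (interval 138 to 4130). 5830411N06Rik and Ankrd35 were at 20.6 to 49.2 and 22.6 to 33.5 CPM in lymph node and at most 0.215 and 0.144 CPM in lamina propria. All of these rises were seen in each of the 3 lymph node libraries, and no lamina propria library overlapped with them.

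Genes of mast cells and of natural killer (NK) cells were among the same steep rises. The mast cell proteases Tpsb2, Cpa3 and Cma1 were 39.7, 62.5 and 46.5 CPM in lymph node replicate 1 and 2.56 to 9.96 CPM in replicates 2 and 3, so that 1 library held most of their counts. Their ratios to lamina propria were 1532 for Tpsb2 (interval 275 to 60543) and 813 for Cpa3 (interval 278 to 3945). Of 9 mast cell and basophil markers tested, 6 rose and 0 fell (0 lower at an unadjusted p under 0.05 and 0 by DESeq2). The summed level of that list was 255 to 452 CPM in lymph node and 106 to 118 CPM in lamina propria, and 5 of its markers, Ms4a2 and Tpsab1 among them, were at 0 in lamina propria. Ncr1, which encodes the NK cell receptor NKp46, rose from 0.0366 to 0.503 CPM to 73.2, 118 and 75.1 CPM. Xcl1, a chemokine of NK and T cells that draws XCR1+ DCs, rose from at most 0.316 CPM to 17.6, 34.9 and 24.4 CPM.

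The steepest falls were mostly genes of the intestinal epithelium, and lamina propria replicate 3 was the highest library for most of them. Cps1 and Lypd8 had no count in lymph node, at least 496-fold and 482-fold lower than lamina propria, where they were 3.16, 6.74 and 35.0 CPM and 2.19, 5.93 and 35.3 CPM. Lgals2, Gpx2, Dmbt1, Olfm4 and Pigr were likewise highest in lamina propria replicate 3 (24.6 to 75.1 CPM), and Itln1 was highest in replicate 2 at 36.7 CPM. Of 19 epithelial markers tested, 16 fell and 1 rose (0 without lymph node replicate 1 or 2 or lamina propria replicate 1 or 2), with 241 to 724 CPM in lamina propria and 40.2 to 50.5 CPM in lymph node, and Muc2, Apoa1, Apoa4 and Defa30 were at 0 in lymph node. The part of epithelial RNA in these falls was not tested. Itln1 was not called when lymph node replicate 1, 2 or 3 or lamina propria replicate 2 was left out (adjusted p 0.012 to 0.022), and Dmbt1 lost its call without lymph node replicate 2 (adjusted p = 0.010). The steep falls also held 2 myeloid receptor genes and Plet1. Trem1, which amplifies inflammatory signals in myeloid cells, was 59.4, 60.3 and 150 CPM in lamina propria and 0.649 to 2.23 CPM in lymph node. Ccr1, a receptor for inflammatory CC chemokines, was 471, 357 and 523 CPM in lamina propria and 12.2, 6.91 and 8.59 CPM in lymph node, a fall of 5.60 on the log2 scale (SE 0.28, adjusted p = 4.5e-10). Plet1, an antigen of intestinal DCs and epithelial progenitors, fell from 60.1, 49.3 and 164 CPM to at most 1.04 CPM.

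The DC maturation programme had the highest median of the 25 pathway lists. Of its 28 members tested, 23 rose, 1 fell and 4 were not called, and the median log2 difference was 2.25 beside 0.03 over all genes. The list was chosen with earlier results of these libraries known and is not independent evidence of its direction. Ccr7 (ENSMUSG00000037944, chromosome 11, 99144196 to 99155077), the receptor that guides DCs to the lymph node T zone, was 40.7, 25.4 and 64.0 CPM in lamina propria and 1024, 1811 and 1880 CPM in lymph node. Every lymph node library was over 10 times above every lamina propria library, and Ccr7 rose by 5.18 on the log2 scale (SE 0.33, adjusted p = 4.9e-09). Fscn1 (ENSMUSG00000029581, chromosome 5, 142960343 to 142973185), an actin-bundling protein of mature DCs, rose from 25.9, 21.9 and 32.9 CPM to 686, 819 and 790 CPM (log2 difference 4.83, SE 0.23). Cacnb3, a calcium channel subunit gene, rose from 4.8 to 11.1 CPM to 265 to 432 CPM, and Tbc1d4, a Rab GTPase activator, from 18.8 to 32.4 CPM to 551 to 800 CPM. Arc and Adcy6 rose by 5.50 and 5.77 on the log2 scale, with at most 1.10 CPM in lamina propria. Socs2, a cytokine signalling inhibitor, rose by 3.55, Marcksl1 by 2.84 and Tmem123 by 2.47 on that scale. Ccl17, a chemokine for CCR4+ T cells, was the member that fell (46.3, 63.5 and 54.0 CPM to 11.9, 23.1 and 16.9 CPM), while Ccl22, which encodes the other CCR4 ligand, rose from 111 to 180 CPM to 344 to 570 CPM. Nfkb2 and Ebi3, with log2 differences of 0.97 and -0.39, were not called.

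Promoter sequence is shown for Xcl1, the steepest rise among the called chemokine, maturation and NF-kB genes, and for Fscn1, chosen after its values were seen. The other genes that the rule gave were Adcy6 and Ccl5. Each sequence holds the 250 bases before the RefSeq start site (GRCm38.p6), 5′ to 3′ on the gene's own strand, and capitals mark matches to a core NF-kB motif (GGG, then any 5 bases, then CC), searched on both strands.
Xcl1 (chr1:164935523-164935772, minus strand): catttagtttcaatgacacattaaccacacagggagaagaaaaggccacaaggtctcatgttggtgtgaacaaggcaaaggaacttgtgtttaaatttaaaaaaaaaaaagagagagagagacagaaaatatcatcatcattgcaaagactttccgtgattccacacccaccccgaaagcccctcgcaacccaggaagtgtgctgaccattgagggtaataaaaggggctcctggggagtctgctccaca
Fscn1 (chr5:142960105-142960354, plus strand): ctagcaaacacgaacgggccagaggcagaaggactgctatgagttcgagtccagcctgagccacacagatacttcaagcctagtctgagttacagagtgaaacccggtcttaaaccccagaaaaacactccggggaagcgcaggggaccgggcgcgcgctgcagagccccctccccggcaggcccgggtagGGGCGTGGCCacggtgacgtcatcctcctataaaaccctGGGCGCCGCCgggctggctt
The Fscn1 window held 2 matches, starting 59 and 20 bases before the start site, and the Xcl1 window held 0. The motif is loose: 45.8% of 32851 promoters in the RefSeq table held it, as did 59.4% of 32 promoters of the maturation list, 59.5% of promoters of genes called higher and 56.7% of those called lower. A match describes letters only and is not evidence of binding.

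Part of the NF-kB list rose. Of 27 NF-kB subunits and regulators, 8 rose, 1 fell and 18 were not called (median log2 difference 0.43). Relb, the subunit of the alternative NF-kB pathway, rose from 184, 176 and 183 CPM to 748, 893 and 1020 CPM (log2 difference 2.29, SE 0.13, adjusted p = 1.5e-09). Traf1 rose by 2.13 and Birc2 by 2.02 on the log2 scale, both components of TNF receptor signalling, and the kinase gene Ikbke by 2.10. The inhibitor gene Tnip3 fell from 138, 89.0 and 88.3 CPM to 26.0, 29.4 and 25.2 CPM. Among 20 BCL2 family members, which set survival and death at mitochondria, 8 rose and 0 fell (3 were lower at an unadjusted p under 0.05, and DESeq2 also called 0). The risen members included both kinds: the pro-survival genes Bcl2l1 (14.7 to 20.2 CPM against 41.3 to 48.9 CPM) and Bcl2a1b, and the pro-death genes Bbc3 (5.02 to 7.11 CPM against 22.6 to 26.2 CPM) and Pmaip1. Bcl2a1b has near-identical copies, between which its reads may have been split.

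Costimulatory genes changed unevenly. Of 21 costimulation and checkpoint ligands tested, 9 rose and 1 fell (2 without lymph node replicate 1 or 3 or lamina propria replicate 2), with a median log2 difference of 0.54. Cd200, an inhibitory ligand, rose from 13.6, 8.6 and 13.8 CPM to 111, 113 and 127 CPM (log2 difference 3.28, SE 0.13), and Icosl, the ligand of ICOS, from 96.8 to 128 CPM to 421 to 527 CPM. Tnfsf4, which encodes OX40 ligand, rose by 4.23 on the log2 scale and Cd1d1, which presents lipid antigen, by 1.83. Cd40 rose from 71.5 to 85.9 CPM to 201 to 238 CPM, and Cd274, which encodes PD-L1, from 65.2 to 85.3 CPM to 155 to 231 CPM. The B7 genes did not pass: Cd80 was 29.7 to 40.5 CPM in lamina propria and 30.0 to 41.3 CPM in lymph node, with overlapping groups, and Cd86 was 86.1 to 105 CPM and 111 to 142 CPM, with a log2 difference of 0.46. Cd24a was the ligand that fell, by 1.53 on the log2 scale.

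**Figure D2:**
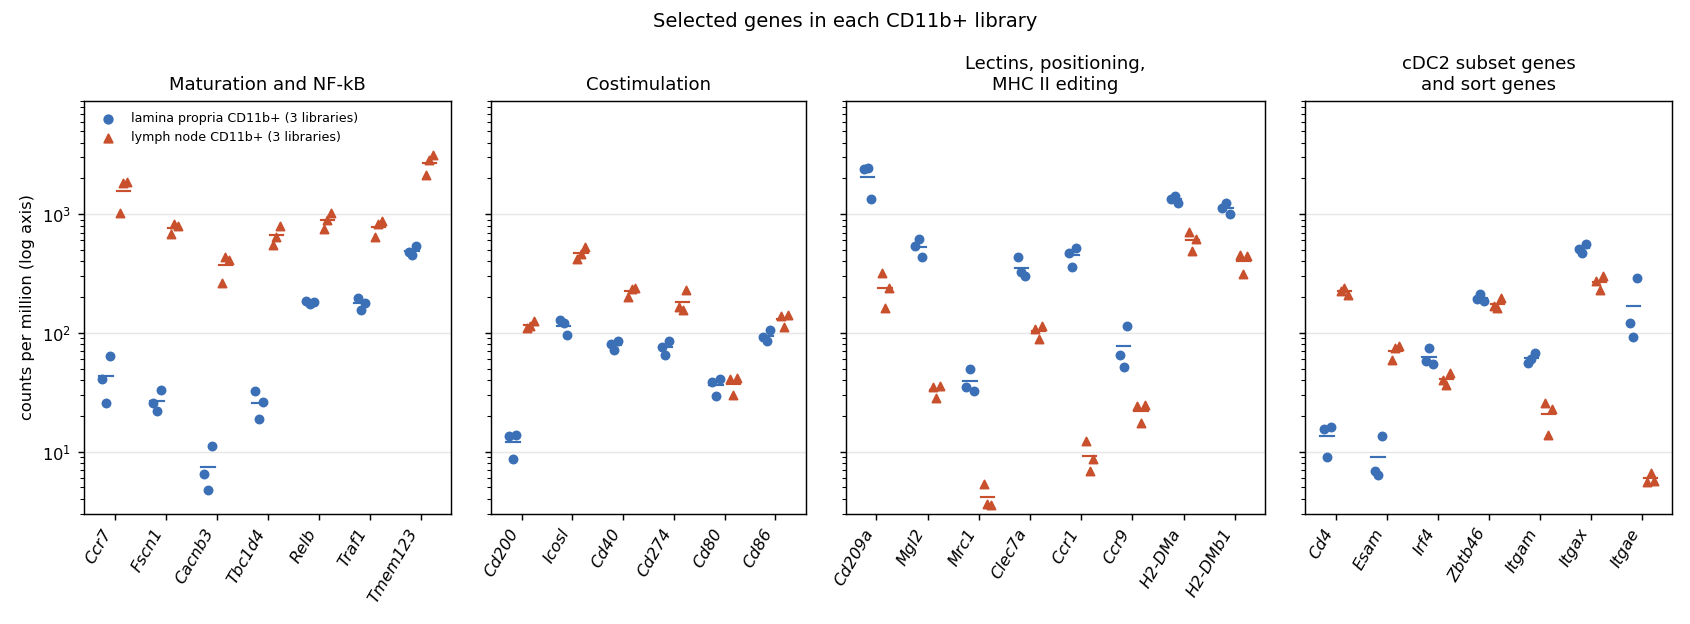
CPM of 28 genes in each library on a log axis, with circles for the 3 lamina propria and triangles for the 3 lymph node CD11b+ libraries and a short line at each group mean. Ccr7, Fscn1, Cacnb3 and Tbc1d4 are separated by over 10-fold, Cd80 overlaps between the tissues, and Cd209a, Mgl2 and Ccr1 lie lower in lymph node.

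Chemokine and positioning receptors split, with 13 of 35 higher and 9 lower in lymph node (5 lower without lymph node replicate 2) and a median log2 difference of 0.41. Beside Ccr7, the receptors that rose included Cxcr6, a receptor of resident lymphocytes (2.27 to 7.04 CPM to 141, 227 and 167 CPM), Cxcr3, a receptor for interferon-induced chemokines (2.38 to 3.88 CPM to 42.0 to 65.7 CPM), Cxcr5, the receptor for the follicle chemokine CXCL13 (0.256 to 1.65 CPM to 16.3 to 25.8 CPM), and S1pr3 (log2 difference 4.49). Beside Ccr1, receptors for complement, leukotriene and gut chemokine fell. C3ar1, the receptor for complement C3a, fell by 3.64 on the log2 scale, and Ltb4r1, the leukotriene B4 receptor, from 71.0 to 102 CPM to 12.3 to 15.6 CPM. The gut-homing receptor gene Ccr9 fell from 65.2, 51.1 and 115 CPM to 24.3, 17.4 and 24.7 CPM. C5ar1, the receptor for complement C5a, fell by 2.50 on the log2 scale, a call lost without lymph node replicate 2 (log2 difference -2.29, adjusted p = 0.010). Gpr183, the oxysterol receptor that positions DCs, was not called (259 to 281 CPM and 291 to 421 CPM). T cell and NK cell markers moved with the lymphocyte-associated receptors Cxcr6 and Cxcr3: all 3 lymph node libraries lay above lamina propria for both lists, with 726 to 1086 CPM against 12.5 to 44.7 CPM for T cell markers and 795 to 1233 CPM against 284 to 466 CPM for NK cell and innate lymphoid cell (ILC) markers. Their part in these rises was not tested.

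Of 29 chemokines tested, 10 rose and 5 fell (median log2 difference 0.05, close to that of all genes). Ccl5, a chemokine made by T cells, NK cells and mature DCs, rose from 13.9, 9.52 and 13.4 CPM to 512, 720 and 585 CPM. Cx3cl1, the membrane-bound ligand of CX3CR1, rose by 2.63 on the log2 scale. Cxcl2, a neutrophil chemokine, fell from 75.3, 37.9 and 191 CPM to 4.90, 6.69 and 18.1 CPM, and Ccl6 fell from 260 to 341 CPM to 84.0 to 102 CPM. The fall of Ccl2, a monocyte chemokine, by 1.51 was lost without lymph node replicate 2 or 3 or lamina propria replicate 3 (adjusted p 0.020 to 0.027).

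Cytokine genes were higher in lymph node for 15 of 35 members and lower for 4 (2 without lymph node replicate 1 or 2 or lamina propria replicate 3), with a median log2 difference of 1.53. T cell and NK cell and ILC marker sums were higher in the same lymph node libraries and highest in replicate 2, as were Lta and Lif, and their part in these rises was not tested. Lta and Ltb, which encode the lymphotoxin chains that organise lymphoid tissue, rose from 0.183 to 1.97 CPM to 42.4, 91.6 and 51.0 CPM and from 71.2 to 122 CPM to 568, 598 and 591 CPM. Lif rose from at most 0.411 CPM to 13.1, 25 and 17 CPM. Tnfsf14, which encodes LIGHT, rose by 4.82 and Tnfsf11, which encodes RANKL, by 3.83 on the log2 scale. Il12b, which encodes the p40 chain shared by IL-12 and IL-23, rose from 1.13 to 3.28 CPM to 25.3 to 30.0 CPM, and Tnf rose from 14.9 to 20.8 CPM to 75.6 to 79.6 CPM. Tnfsf13b, which encodes the B cell survival factor BAFF, fell from 18.8, 16.7 and 26.3 CPM to 0.833 to 1.88 CPM, and Il1a fell by 2.75 on the log2 scale. Il1b was 1456, 872 and 1521 CPM in lamina propria and 392, 363 and 932 CPM in lymph node, highest in lymph node replicate 3. Its fall of 1.19 was called only narrowly and was lost when lymph node replicate 1 or 2 or lamina propria replicate 1 or 3 was left out (adjusted p 0.028 to 0.045). Il6 (log2 difference 0.19) and Tgfb1 (-0.90) were not called.

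Of 46 receptors for growth factors and cytokines, 18 rose and 7 fell, with a median log2 difference of 0.22. Il2rb, Il2ra, Tnfrsf9 and Tnfrsf4, which serve IL-2 and IL-15, 4-1BB ligand and OX40 ligand, rose by 5.87, 4.65, 5.78 and 5.41 on the log2 scale. Il2rb went from 5.71, 3.29 and 3.28 CPM to 190, 327 and 203 CPM, highest in lymph node replicate 2, which was also the highest of the lymph node libraries for the T cell and NK cell marker sums. The largest fall of this list was that of Il22ra2, which encodes the soluble IL-22 antagonist made by gut DCs, from 910, 629 and 1914 CPM to 67.1, 47 and 88.8 CPM (log2 difference -4.09, SE 0.44). The decoy receptor gene Il1r2 fell from 153 to 213 CPM to 10.1 to 18.8 CPM. Lifr fell by 2.23 and Csf2ra, the GM-CSF receptor alpha chain, by 1.17 on the log2 scale. Flt3, the receptor for the DC growth factor FLT3 ligand, was 330 to 380 CPM and 425 to 459 CPM and did not pass the fold limit.

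Antigen presentation genes moved in both directions. Of 15 genes of MHC class II presentation, 3 fell (20.0%), 1 rose (6.67%) and 11 were not called (median log2 difference -0.52). Of all genes, 4.93% fell and 10.3% rose. H2-DMb1 and H2-DMa, which encode the peptide editor H2-DM, fell from 1135, 1233 and 1009 CPM to 449, 312 and 443 CPM and from 1334, 1409 and 1249 CPM to 707, 489 and 620 CPM. The class II genes themselves stayed under the fold limit: H2-Ab1, H2-Aa, H2-Eb1 and Cd74 had log2 differences of -0.71, -0.52, -0.53 and -0.70, and all 3 lymph node libraries lay below lamina propria for each. March1, the ubiquitin ligase that removes MHC class II from the surface, fell by 1.05, a call lost without lymph node replicate 2 (log2 difference -0.86) or lamina propria replicate 3, where it was just inside the fold limit. H2-Eb2, a class II beta gene, rose from 2.05 to 6.44 CPM to 90.0 to 103 CPM. Of 23 genes of MHC class I presentation, 6 rose and 0 fell (4 were lower at an unadjusted p under 0.05, and DESeq2 also called 0). Nlrc5, the class I transactivator, rose from 22.2, 15.3 and 13.8 CPM to 51.2, 83.1 and 68.5 CPM, and H2-K1 rose from 1854 to 2246 CPM to 3974 to 4844 CPM. H2-Q6, H2-Q7 and H2-Q4 rose by 2.52, 2.30 and 1.39 on the log2 scale, with the limit that reads of these near-identical genes may have been split among them. Among 20 endolysosomal proteases and inhibitors, 3 rose (15.0%) and 1 fell (5.0%), near the 10.3% and 4.93% of all genes. The cathepsin genes Ctsd and Ctse rose by 1.45 and 2.18 and Ctsw, a cathepsin of NK and T cells, by 5.38. Ctsl fell by 1.09, a call lost without lamina propria replicate 3 (log2 difference -0.76).

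Of the pathway lists, C-type lectins and phagocytosis genes had the lowest medians. Of 32 C-type lectins, 14 fell and 5 rose (3 without lymph node replicate 3 or lamina propria replicate 1), with a median log2 difference of -1.27. Cd209a (ENSMUSG00000031494), a DC-SIGN homologue and cDC2 marker, was 2413, 2450 and 1329 CPM in lamina propria and 320, 162 and 241 CPM in lymph node, a fall of 3.10 on the log2 scale (SE 0.30, adjusted p = 6.6e-07). Mgl2, a galactose-type lectin gene, fell from 541, 614 and 435 CPM to 34.8, 28.4 and 35.6 CPM and the related Clec10a from 124 to 237 CPM to 19.0 to 32.9 CPM. Mrc1, which encodes the mannose receptor, and Cd209c fell by 3.24 and 3.50, and Clec7a, which encodes the beta-glucan receptor dectin-1, by 1.78 on that scale. Ly75, which encodes the endocytic receptor DEC-205, rose from 6.10, 6.26 and 9.38 CPM to 38.1, 38.0 and 47.6 CPM, and Clec2i rose by 2.07 on the log2 scale. The rises of Clec4a1 and Clec4a3, 1.64 and 1.33, were lost without lymph node replicate 1 or 3 or lamina propria replicate 1, and that of Clec4a3 also without lamina propria replicate 3 (adjusted p 0.011 to 0.033). Clec4a4, which encodes the cDC2 marker DCIR2, overlapped between the tissues (48.9 to 89.9 CPM and 42.3 to 67.0 CPM).

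Of 34 phagocytosis and scavenging genes, 15 fell and 4 rose (median log2 difference -0.91). The complement component genes C1qb and C1qc fell from 217 to 522 CPM to 56.3 to 88.9 CPM and from 147 to 360 CPM to 37.5 to 58.6 CPM. Cd163, a haemoglobin scavenger receptor gene, fell by 3.54 on the log2 scale. C3 rose by 3.27, Mfge8, which bridges apoptotic cells to phagocytes, by 1.31 and Timd4 by 1.69 on the log2 scale. Several of the genes that fell are also macrophage markers. Of 15 macrophage markers, 9 fell and 1 rose (2 without lymph node replicate 2 or lamina propria replicate 3), with summed levels of 2167 to 4059 CPM in lamina propria and 949 to 1434 CPM in lymph node, and lamina propria replicate 3 was the highest library for C1qb (522 CPM) and Apoe (1738 CPM). The defining marker Fcgr1, which encodes CD64 and was gated out of lamina propria DCs, was 7.90 to 11.1 CPM in lamina propria and 4.09 to 6.00 CPM in lymph node and was not called. The part of macrophage RNA in these falls was not tested. The call of Apoe was lost without lymph node replicate 1 or 2 or lamina propria replicate 3 (adjusted p 0.012 to 0.027).

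Of 26 genes of Toll-like receptor signalling, 2 rose and 3 fell, against 15.2% of all genes. Tlr7, a sensor of single-stranded RNA, rose from 1.87 to 6.44 CPM to 19.8 to 25.2 CPM, and Ly96, which encodes the TLR4 partner MD-2, rose by 1.84 on the log2 scale. Cd14, the lipopolysaccharide co-receptor gene, fell from 53.1, 49.8 and 77.0 CPM to 11.1, 5.29 and 14.4 CPM. Tlr12 and Irak2 fell by 1.21 and 1.05, and both calls were lost without lamina propria replicate 3 (log2 differences -0.94 and -0.89). Of 14 Fc receptor genes, 4 rose (28.6%) and 3 fell (21.4%), against 10.3% and 4.93% of all genes. Among them were Pigr, which fell with the epithelial genes above, and Fcer1a, a mast cell and basophil marker with 1 count in lamina propria and 582 in lymph node. The part of other cells in these changes was not tested. Fcgr3, an activating IgG receptor gene, fell from 108 to 169 CPM to 30.8 to 46.1 CPM and Fcrl1 rose from 6.82 to 10.7 CPM to 37.9 to 55.9 CPM, while the shared signalling chain gene Fcer1g was not called (log2 difference 0.16).

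The lineage regulators of conventional DCs were mostly not called. Of 40 DC lineage transcription factors, 11 rose, 4 fell and 25 were not called (median log2 difference 0.35). Zbtb46, which marks conventional DCs, was 186 to 213 CPM and 161 to 196 CPM, Irf4 was 54.9 to 74.7 CPM and 36.2 to 46.1 CPM, and neither passed. Irf8, the cDC1 and monocyte regulator, rose from 147, 148 and 158 CPM to 381, 416 and 419 CPM (log2 difference 1.43, SE 0.09), and Id2 rose from 221 to 412 CPM to 681 to 1038 CPM. Klf2, a regulator of lymphocyte recirculation, rose by 1.99 on the log2 scale. Rora, Maf and Ikzf3, which lymphocytes also use, rose by 2.95, 3.0 and 2.51. Runx1 fell from 181, 207 and 131 CPM to 54.5, 44.5 and 49.6 CPM. Ahr, the aryl hydrocarbon receptor gene, fell from 73.5 to 85.3 CPM to 32.8 to 34.8 CPM.

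Of 16 cDC2 markers, 5 rose and 6 fell. Cd4 and Esam, which mark a CD11b+ DC population of lymphoid organs, rose from 15.4, 8.97 and 16.1 CPM to 227, 237 and 207 CPM and from 6.89, 6.41 and 13.6 CPM to 59.3, 74.7 and 77.7 CPM. Cd4 is also a T cell gene, and T cell markers were higher in the same libraries. Mgl2, Cd209a, Clec10a, Itgam, Cd24a and Epcam were the 6 that fell, and Sirpa, the surface protein that defines cDC2, was 466 to 619 CPM and 515 to 832 CPM and was not called. Among 15 cDC1 markers, 8 rose and 1 fell, with a summed level of 1104 to 1250 CPM in lymph node and 893 to 1063 CPM in lamina propria. Cd8a, like Cd4 also a T cell gene, rose by 3.0, Cadm1 by 1.97 and Xcr1 by 1.78 on the log2 scale (Xcr1 from 11.7 to 15.8 CPM to 44.4 to 49.0 CPM). The cDC1 receptor gene Clec9a overlapped (5.69 to 12.2 CPM and 10.7 to 15.0 CPM), and Itgae was the one that fell.

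Retinoic acid and TGF-beta serve tolerance in gut DCs. Of 18 retinoic acid genes tested, 6 fell and 3 rose, against 4.93% and 10.3% of all genes. Aldh1a2, which encodes the enzyme that makes retinoic acid in gut DCs, was 96.9, 106 and 101 CPM in lamina propria and 65.7, 120 and 131 CPM in lymph node, with overlapping groups. Tgm2, a retinoic acid target, fell from 217, 315 and 272 CPM to 109, 67.6 and 99.8 CPM, Rdh10 fell by 1.42 and the receptor gene Rarg rose by 2.20 on the log2 scale. Rxrg, a retinoid X receptor gene, had 3 counts in lamina propria and 831 in lymph node, a ratio of 257 (interval 87.5 to 1247). Of 25 TGF-beta genes, 4 rose and 0 fell (4 were lower at an unadjusted p under 0.05, and DESeq2 called 1, as did edgeR without lymph node replicate 1 or 3 or lamina propria replicate 1 or 2), among them Smad3 (1.87 to 2.50 CPM to 12.3 to 18.4 CPM) and Itgb8, whose product activates TGF-beta on DCs (at most 0.569 CPM to 3.0 to 3.77 CPM). Of 23 integrin chains, 3 rose and 4 fell. Itgb3 rose by 2.39, Itga5 fell by 1.07 and Itgad by 1.06, and the last 2 calls were lost when single libraries were left out (Itga5 -0.99 without lymph node replicate 1 and -0.97 without lamina propria replicate 2, Itgad -0.94 without lymph node replicate 2 or lamina propria replicate 3). Itgb2 and Itgb7, the beta chains of LFA-1 and of the gut-homing integrin, had log2 differences of -0.71 and -0.85 and were not called.

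Interferon-stimulated genes rose in 18 of 39 members and fell in 3 (median log2 difference 0.93). Rsad2, Mx1 and Irf7, which encode antiviral effectors and the main regulator of type I interferon, rose from 9.01 to 11.5 CPM to 53.2, 73.2 and 73.5 CPM, from 12.6 to 15.3 CPM to 67.5, 92.7 and 104 CPM and from 47.5 to 79.1 CPM to 272, 315 and 310 CPM. Isg15 and Ifit3b rose by 1.51 and 2.16 on the log2 scale. The 3 that fell were all of the Ifitm family, membrane proteins that block virus entry: Ifitm6 fell from 332, 317 and 299 CPM to 94.1, 51.7 and 64.0 CPM, Ifitm3 by 1.30 and Ifitm2 by 1.11 on the log2 scale. The call of Ifitm2 was lost without lymph node replicate 2 or lamina propria replicate 2 (log2 difference -0.97 in each).

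The cholesterol, glycolysis and actin lists had median log2 differences of -0.56, -0.50 and -0.23, with calls in both directions. Of 31 genes of cholesterol synthesis and efflux, 22 lay lower in every lymph node library than in any lamina propria library (against 23.1% of all genes), 4 of which were called. Dhcr7 and Sqle, for sterol synthesis, fell by 1.53 and 1.33 on the log2 scale, while Abcg1, for efflux, and Mylip rose by 1.36 and 1.52, as did their regulator Nr1h3 by 1.57 (not called without lymph node replicate 1 or 3 or lamina propria replicate 1 or 2, adjusted p 0.015 to 0.022). Of 23 glycolysis genes, 3 fell and 3 rose. Aldoc, Hk2 and Ldha fell by 3.05, 1.62 and 1.11, and Eno2, Ldhb and Pfkfb3 rose by 5.74, 3.49 and 2.37. Pfkfb3, which makes the activator of phosphofructokinase, went from 48.0 to 52.1 CPM to 180, 299 and 292 CPM. Of 39 actin and motility genes, 5 rose (12.8%) and 3 fell (7.69%), near the 10.3% and 4.93% of all genes. Beside Fscn1 and Marcksl1, Myo1g rose by 1.11 and Marcks by 1.05 (0.95 and under the fold limit without lymph node replicate 3). Anxa1, a regulator of leukocyte migration, fell from 405 to 427 CPM to 111 to 122 CPM, Vasp by 1.28 and Vim by 1.04 on the log2 scale (Vim -0.98 without lymph node replicate 2 and -0.91 without lamina propria replicate 2, under the limit).

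Of 30 cell cycle genes, 0 were called by edgeR and 0 by DESeq2, while 14 were lower and 0 higher at an unadjusted p under 0.05. Mki67 was 42.5 to 53.3 CPM in lamina propria and 41.6 to 55.9 CPM in lymph node. Immediate early and dissociation genes, which respond to handling, rose in 7 of 38 members (4 without lymph node replicate 3 or lamina propria replicate 3) and fell in 2 (1 without lymph node replicate 1 or lamina propria replicate 1), with a median log2 difference of 0.00. Those shares were 18.4% and 5.26%, against 10.3% and 4.93% of all genes. Fos and Jun overlapped, Gadd45b and Zfp36l1 rose by 1.95 and 2.13, and Atf3 fell from 766 to 909 CPM to 158 to 347 CPM. The heat shock gene Hspa1b, which has a near-identical copy in Hspa1a, was 265, 117 and 546 CPM in lymph node and 46.4, 107 and 55.1 CPM in lamina propria, and its rise was lost without lymph node replicate 1 or 3 or lamina propria replicate 1 or 3 (adjusted p 0.011 to 0.053). The fall of Ier2 by 1.04 was lost without lymph node replicate 1 or 3 or lamina propria replicate 1 (log2 difference -0.98 in each).

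**Figure D3:**
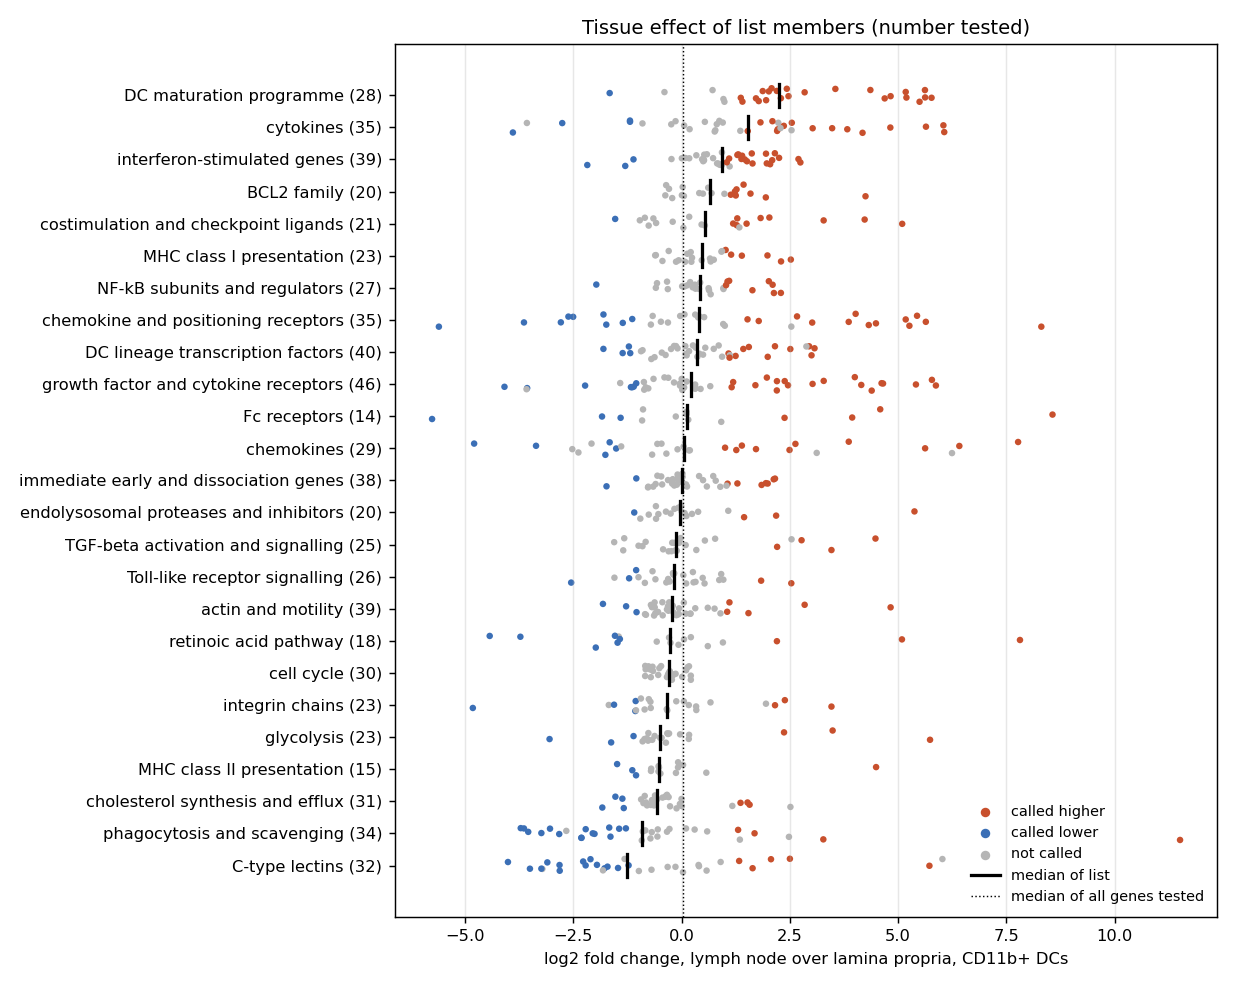
Fitted log2 difference between lymph node and lamina propria CD11b+ DCs (x axis) of each tested member of the 25 pathway lists (rows, sorted by list median), coloured by call. The maturation list (28 genes) has the highest median, 2.25, and C-type lectins (32 genes) the lowest, -1.27, beside 0.03 for all genes.

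Markers of other cells moved with tissue. Of 15 T cell markers, 14 rose and 0 fell (0 lower at an unadjusted p under 0.05 and 0 by DESeq2), with Tcf7 at 2.20 to 8.28 CPM in lamina propria and 286, 332 and 326 CPM in lymph node, Lck at 0.732 to 7.47 CPM and 89.8 to 165 CPM and Cd3g at 0.512 to 3.73 CPM and 30.8 to 58.3 CPM. Of 15 NK cell and ILC markers, 12 rose and 0 fell (1 lower at an unadjusted p under 0.05, 0 by DESeq2 and 1 without lamina propria replicate 3). Il7r rose from 10.0 to 13.7 CPM to 182, 352 and 225 CPM and Nkg7 from 0.476 to 2.33 CPM to 81.9, 125 and 84.4 CPM, and Eomes, with no count in lamina propria, was at least 95.8-fold higher in lymph node, while Klrk1 and Klrd1 were not called. Of 10 B cell markers, 8 rose (Cd79b by 1.66 and Ms4a1 by 4.34 on the log2 scale), with 136 to 188 CPM in lymph node and 47.4 to 57.7 CPM in lamina propria for the list. Of 11 plasma cell markers, 2 rose (4 without lymph node replicate 2), and Igha (3403 to 4866 CPM in lymph node and 4391 to 6866 CPM in lamina propria) and Igkc overlapped. Plasmacytoid DC markers rose in 5 of 10 members (3 without lymph node replicate 1 or 3 or lamina propria replicate 2 or 3) and fell in 2, with Siglech at 3.73 to 7.36 CPM and 14.1 to 18.3 CPM. Monocyte markers rose in 3 of 9 members (1 without lymph node replicate 1 or 3 or lamina propria replicate 1) and fell in 3. Plac8 fell by 1.71 and Fn1 by 4.98 on the log2 scale, Ms4a4c rose by 1.32 (not called without any 1 of lymph node replicates 1, 2 and 3 or lamina propria replicates 1 and 3, adjusted p 0.015 to 0.031), and Ccr2 fell by 1.36 and lost its call with any of the 6 libraries left out (adjusted p 0.011 to 0.049). Of 7 neutrophil markers, only Mmp8 was called, lower in lymph node (0 lower without lymph node replicate 1 or 3 or lamina propria replicate 3, and 2 higher without the last), and Cxcr2 overlapped (6.46 to 15.5 CPM and 7.5 to 11.1 CPM). Of 7 eosinophil markers, Prg2 rose by 2.17 and Siglecf fell by 2.28 on the log2 scale (a call lost without lamina propria replicate 3, adjusted p = 0.010). Of 12 stromal and endothelial markers, 2 rose (Kdr by 3.06), and of 8 erythroid and platelet markers 2 fell (Pf4 by 4.79), 1 without lymph node replicate 1 or 2 or lamina propria replicate 1 and 5 without lymph node replicate 3. Over all genes tested, 10.3% rose and 4.93% fell. Where only 1 or 2 members of a smaller list were called, the share rests on those few genes. Such shares were 18.2% higher for plasma cell and 16.7% higher for stromal and endothelial markers, and 14.3% in each direction for eosinophil markers. They were 25.0%, 20.0% and 14.3% lower for erythroid and platelet, plasmacytoid DC and neutrophil markers. These cell types' part in the differences above was not tested.

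**Figure D4:**
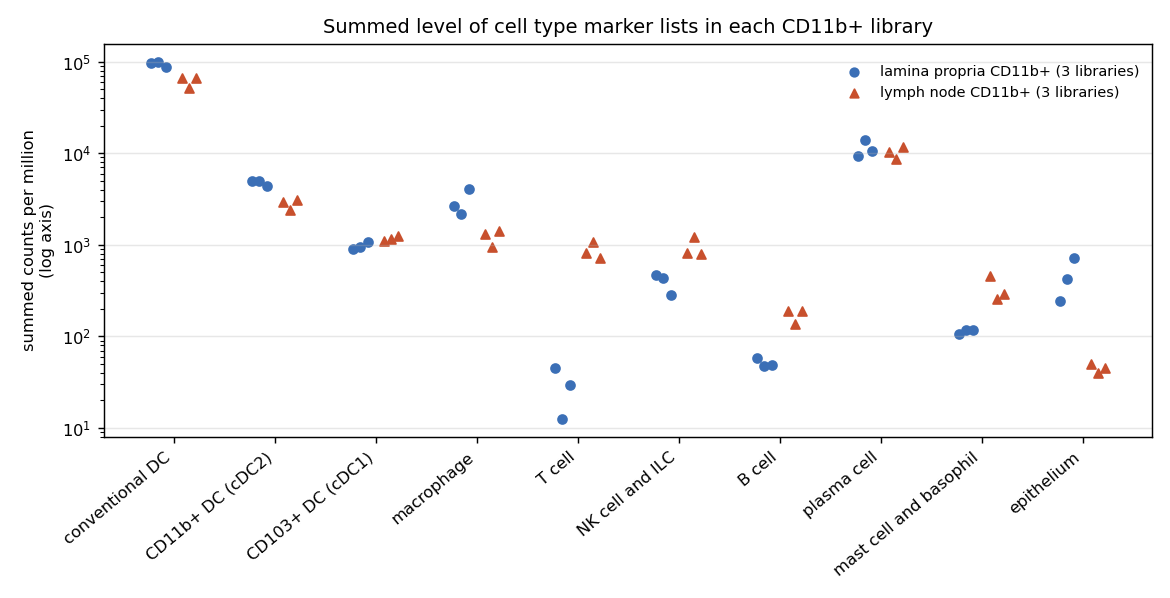
Summed CPM of 10 marker lists (log axis) in each of the 3 lamina propria (circles) and 3 lymph node (triangles) CD11b+ libraries. T cell markers sit at 726 to 1086 CPM in lymph node and 12.5 to 44.7 CPM in lamina propria, epithelial markers at 40.2 to 50.5 CPM and 241 to 724 CPM, and plasma cell markers overlap.

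The tissue effect in CD11b+ DCs was then compared with the mean of the effects in CD103+ and double-positive DCs, each taken within its own subset. Sex was not in the fit. The sex-linked list had a median difference of effects of 3.50, and of -3.11 without lymph node CD11b+ replicate 3, so sex and subset may be mixed in this comparison too. Of 17074 genes, 2579 (15.1%) differed in effect at the same limits, 1278 (7.49%) more positive and 1301 (7.62%) more negative in CD11b+ DCs. Scaling by total counts gave 2242 more positive and 835 more negative, since it moved the median difference over all genes from 0.00 to 0.33, and every direction here is relative to that median. Of the 2600 genes called in CD11b+ DCs, 726 also differed from the other subsets: 322 rose less, 122 rose more, 180 fell less and 102 fell more than the mean of the other subsets. Another 1853 genes differed without being called in CD11b+ DCs. Of the 2600 called there, 104 were called in the opposite direction in at least 1 other subset. In CD11b+ DCs alone of the 3 subsets, 149 genes were called higher and 164 lower, counts of calls that are not by themselves a test of a difference.

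The maturation list rose less in CD11b+ DCs. Of its 28 members, 18 had a more negative effect and 0 a more positive one (1 at an unadjusted p under 0.05), counts that total-count scaling left at 18 and 0. Fscn1 rose by 4.83 on the log2 scale in CD11b+ DCs and by 7.41 and 6.00 in CD103+ and double-positive DCs, reaching 765 CPM ± 70 (SD, n = 3) in lymph node CD11b+ DCs and 7643 ± 766 and 4594 ± 686 CPM in CD103+ and double-positive lymph node DCs. Ccr7 did not differ at the limits used (log2 difference of effects -0.88, SE 0.34, adjusted p = 0.049). Of 27 NF-kB genes, 16 were more negative and 1 more positive (0 without lymph node replicate 1 or lamina propria replicate 3), and of 23 MHC class I genes 13 were more negative (8 with total counts). MHC class II genes were more positive in 8 of 15 and cell cycle genes in 20 of 30, such as Mki67, whose effect was 0.02 in CD11b+ DCs and -1.72 and -1.65 in the others. Ciita, the class II transactivator, was 456 CPM in lymph node CD11b+ DCs after 639 CPM in lamina propria, and its effect was -4.14 and -1.55 on the log2 scale in CD103+ and double-positive DCs.

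Named next are the 6 genes with the smallest p for the difference in each direction. Cd82, a tetraspanin gene, rose from 231, 194 and 236 CPM to 485, 535 and 474 CPM in CD11b+ DCs and fell by 2.26 and 1.32 on the log2 scale in CD103+ and double-positive DCs (difference 2.97, SE 0.11, adjusted p = 7.7e-11). Cyp4f16, a fatty acid hydroxylase gene, rose from 129 to 172 CPM to 449 to 650 CPM and fell by 2.42 and 2.18 in the others. Cd244a and Anxa1 fell in all 3 subsets, by 1.03 and 1.81 on the log2 scale in CD11b+ DCs and by 4.14 to 4.85 in the others (Cd244a was under the fold limit in CD11b+ DCs without lymph node replicate 2 or lamina propria replicate 3, -0.96 and -0.98), and Plekhg3 was level in CD11b+ DCs (15.9 to 19.8 CPM and 14.6 to 17.9 CPM). Tlr3, the sensor of double-stranded RNA, was 16.2 to 20.3 CPM in lamina propria and 20.2 to 24.6 CPM in lymph node CD11b+ DCs, and its effect was -6.79 in CD103+ DCs and -0.60 in double-positive DCs. More negative in CD11b+ DCs were Lgmn, Gabarapl1, Epsti1, Nans, Tuba1a and Rab20. Lgmn, which encodes the lysosomal protease legumain, was 98.4 to 127 CPM and 115 to 133 CPM in CD11b+ DCs, with overlapping groups, and rose by 4.78 and 1.5 in the others (difference -3.07, SE 0.11, adjusted p = 7.7e-11). Epsti1 rose in all 3 subsets, by 1.62 in CD11b+ DCs and by 4.74 and 4.79 in the others. Rab20, a phagosome GTPase gene, fell from 45.9 to 62.1 CPM to 19.1 to 27.0 CPM and rose by 2.74 and 1.55 in the others, while Tuba1a, Nans and Gabarapl1 were not called in CD11b+ DCs and rose by 1.17 to 4.14 in the others.

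**Figure D5:**
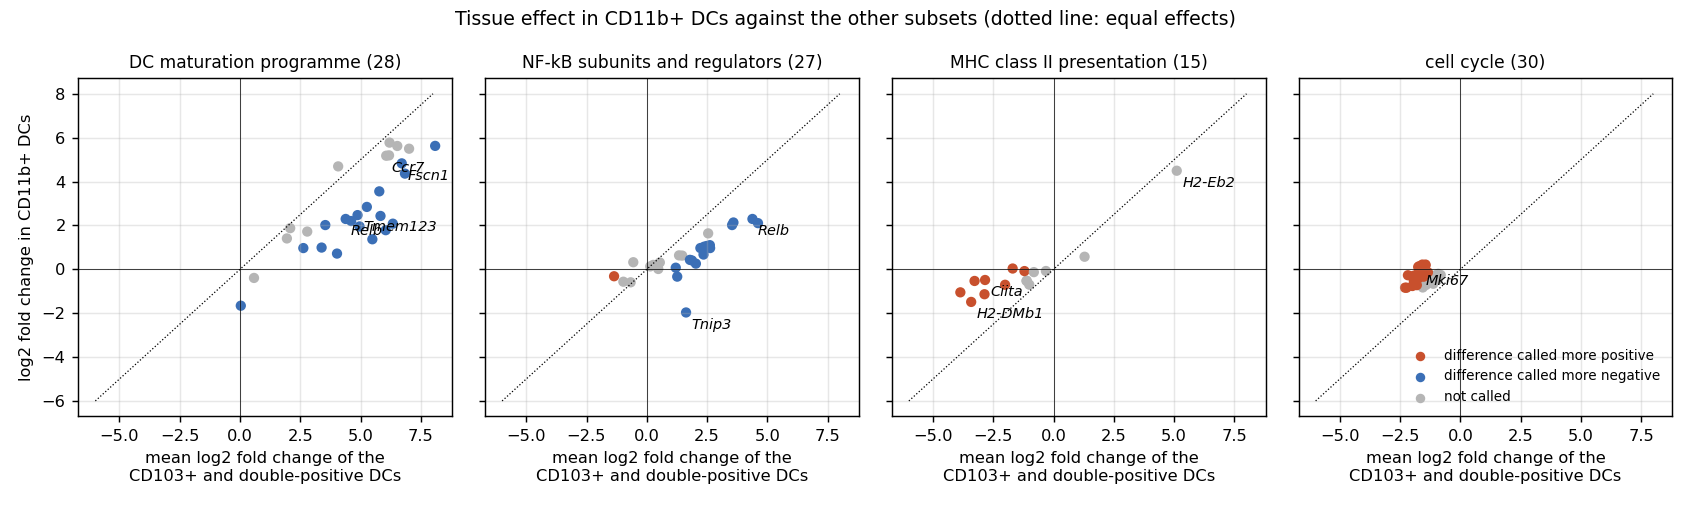
For 4 gene lists, the log2 tissue effect in CD11b+ DCs (y axis) against the mean effect in CD103+ and double-positive DCs (x axis), 1 point per gene, coloured by the test of the difference, with a dotted line for equal effects. Of 28 maturation genes 18 lie significantly below the line, and 8 of 15 MHC class II and 20 of 30 cell cycle genes lie significantly above it.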

How the data were processed

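RNA of sorted dendritic cells had been amplified with the SMART-seq v4 kit and sequenced as 75 base reads on a HiSeq4000, per the labels. The authors deposited raw read counts per gene for 18 libraries in 1 table, with 3 libraries in each of 6 groups of tissue and subset. The submitters' processing notes name FastQC 0.11.7, STAR 2.6 and GRCm38, and the counting step, its use of strand and its annotation are not given in the sources used here. Unstranded counting would merge a gene with an overlapping antisense gene.

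Of 54232 gene rows, 54165 matched GENCODE vM21. Genes were filtered with filterByExpr, which left 17074, and fitted with edgeR 4.0.16 (R 4.3.3) by quasi-likelihood with TMM scaling on all 18 libraries with 6 group means, which share 1 estimate of the spread. Contrasts were lymph node minus lamina propria in CD11b+ DCs, and that effect minus the mean effect of the other subsets. A gene was called at a Benjamini-Hochberg adjusted p under 0.01 over all genes tested and a log2 difference over 1 in size, and adjusted p-values in the text come from edgeR. CPM are counts scaled to each library's total count multiplied by its TMM factor. They are not per length, so levels are not compared between genes. The factors ran from 0.853 (lymph node CD103+ replicate 3) to 1.21 (lymph node CD11b+ replicate 2), and CPM compared between subsets depend on them. Intervals and floors cover counting error only.

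The members, gene lists and tests were chosen with earlier results of these data known. Named were the sort and sex-linked genes, the 12 largest rises and 12 largest falls among called protein-coding genes whose libraries did not overlap and whose higher group averaged 10 CPM or more (without T cell, B cell, plasma cell, epithelial and sex-linked genes), up to 4 rises and 4 falls per list, the 6 smallest p-values of the difference in each direction, and marker genes. Some genes named by the rule are not reported here. The procedure was run on simulated counts with the same spread for every gene and no effect of sex or of other cells. It therefore does not show how the procedure performs on these libraries. Alternatives were other scalings, filters, the DESeq2 test, a replicate block, the 6 libraries alone and single libraries left out. Replicates with the same number did not deviate together, so the numbers were not taken as pairs.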

Additional observations from a re-analysis of the deposited data

Results flagged for a closer look

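Under the same contrast, the tissue effect differed between CD11b+ DCs and the mean of the other subsets for 1278 genes that were more positive and 1301 that were more negative in CD11b+ DCs (edgeR interaction test). Values below are this difference on the log2 scale, and each gene was past the threshold of that test.

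Of the 12 genes with the smallest p, the differences more positive in CD11b+ DCs were 2.97 for Cd82, 3.97 for Tlr3, 4.19 for Cyp4f16, 3.38 for Cd244a, 4.06 for Plekhg3 and 2.68 for Anxa1. The more negative ones were -3.07 for Lgmn, -2.44 for Gabarapl1, -3.14 for Epsti1, -1.93 for Nans, -2.92 for Tuba1a and -3.40 for Rab20.

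Among maturation and costimulation genes, the difference was -2.09 for Relb, -1.88 for Fscn1, -2.41 for Marcksl1, -2.40 for Tmem123, -2.22 for Socs2 and -1.89 for Cd40, all of which rose in each subset. The NF-kB inhibitor gene Tnip3 fell in CD11b+ DCs and rose in CD103+ DCs (difference -3.60), and the chemokine gene Ccl6 did likewise (-2.63). Their log2 effects in double-positive DCs were 0.07 and -0.42.

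Among genes of MHC class II presentation, the difference was 1.93 for H2-DMb1, 1.73 for H2-DMa and 2.35 for Ciita, and for B2m, which encodes the MHC class I light chain, it was -1.56. The integrin gene Itgb2 had a difference of 2.23, the lectin genes Cd209a and Mgl2 had 1.78 and 2.13, and Fcgr1 had 2.95. H2-DMb1, H2-DMa, Cd209a and Mgl2 fell in CD11b+ DCs, by less than the mean of the other subsets.

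Aldh1a2, for retinoic acid synthesis, had a log2 tissue effect of 0.06 in CD11b+ DCs and of 3.19 and 2.34 in CD103+ and double-positive DCs, a difference of -2.71. The cholesterol exporter gene Abcg1 and the glycolytic gene Pfkfb3 had differences of -3.13 and -2.45. Both rose in CD11b+ DCs, by less than the mean of the other subsets. Cxcr3, Xcr1 and Kit rose in CD11b+ DCs and fell in CD103+ DCs, with differences of 3.59, 2.93 and 2.38, while in double-positive DCs their log2 effects were 3.43, 1.55 and -0.60. The proliferation gene Mki67 had a difference of 1.70.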

How the results depend on the processing

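The tissue comparison set 6 CD11b+ libraries against each other and the difference of effects used all 18, from 1 knockout strain and no wild type. These numbers of libraries limit which differences pass, and CD11b+ lymph node libraries differed in Xist and Y-linked counts. With lymph node replicate 3 as the only lymph node CD11b+ library, the lone sample being assumed to vary like the other groups, 1579 genes were called, 393 of them lower, and 805 effects were more negative than in the other subsets. Total counts in place of TMM moved the median of all genes from 0.03 to 0.17 and that of the difference of effects to 0.33, and gave 74.7% of tissue calls as higher (67.6% with TMM) and 2242 more positive and 835 more negative differences. A replicate block gave 2607 calls over 18 libraries (2600 without it). In the 6 CD11b+ libraries alone, 2275 genes were called, and 1729 (1110 higher) with the replicate block. Deviations of libraries with the same number had correlations of -0.11, -0.14 and 0.04 over 8741 genes, and the numbers were not taken as pairs. Leaving out 1 library at a time gave 2114 to 2386 calls, 1451 to 1658 higher and 635 to 791 lower, and 2254 to 2542 differences of effect, 1164 to 1344 more positive and 1042 to 1339 more negative. The DESeq2 test called 2887 genes. Over all alternatives, 83 of 90 counts of genes stayed within 1.5 times the value given and the other 7 are printed above. Of the list counts and medians under alternatives, 1861 stayed within 1.5 times (counts) or 1 standard error over the members (medians) and 155 moved further. Of the values of named genes under alternatives, 5606 kept their side of the threshold, 245 no longer passed and 25 newly passed. A change of direction was counted only where the gene was called in either fit, and 0 were found. Values called in neither fit may have changed sign and were counted as keeping their side. The cause of these moves was not tested. Settings that leave libraries out also hold fewer libraries, and that part was not separated from the values of the library left out.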
